A study of Mus musculus with 4 samples.

Results

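Grb10 and Ddc are neighbouring imprinted genes on mouse chromosome 11, and the peaks described here are those whose summit lay inside either gene or within 50 kb of them. The window ran from 11764101 to 12087428 (build mm10), a length of 323 kb. It held 4 peaks of the Trim33 list, which has 4426, then 10 of 52446 from the CTCF list and 26 of 30047 from the H3K27ac list, or 40 of the 86919 peaks of the 3 deposited lists. The lists came from chromatin immunoprecipitation and sequencing of mouse embryoid bodies at day 6 of culture, with 1 library each for Trim33, CTCF and H3K27ac and 1 library of input DNA as the background. Embryoid bodies are aggregates in which embryonic stem cells differentiate into several germ layers. All 4 libraries came from stem cells of passages 8 to 12 with the genotype Trim33FF: UbcCreERT2, of the strain given as Outbred - B6:129Sv. These cells carry conditional Trim33 alleles and a tamoxifen-dependent Cre under the ubiquitin C promoter, and the labels give no treatment. The peaks were chosen by position from the same lists that supply their values, so every value below is a description of these libraries and no test was made.

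Imprinted genes are expressed mainly from the copy inherited from 1 parent. Grb10 encodes an adaptor protein that binds insulin and growth factor receptors and restrains growth. It is expressed from the maternal copy in most mouse tissues and from the paternal copy in neurons, under the control of a region inside the gene that carries DNA methylation on the maternal copy. CTCF, a zinc finger protein of insulators and loop anchors, has been described to bind within mouse Grb10 where the DNA is not methylated. Ddc encodes the decarboxylase that makes dopamine and serotonin, and in mice it is imprinted in the developing heart. Trim33, a TRIM family protein that binds modified histones, works in Nodal and TGF-beta signalling, and H3K27ac, the acetylation of histone H3 at lysine 27, marks active promoters and enhancers. Peak lists do not separate the maternal from the paternal copy, nor the cell types within the bodies.

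Grb10 (gene ID 14783) lies at chr11:11930499-12037428 and Ddc (gene ID 13195) at chr11:11814101-11898144 in the RefSeq annotation of GRCm38.p6, with 32.4 kb between them. Both are transcribed from the minus strand, so Grb10 starts farthest from Ddc, and the 3′ end of Ddc faces its next neighbour. That neighbour is Fignl1 (gene ID 60530, chr11:11800288-11808983, minus strand), which encodes an ATPase of recombination repair. Beyond it, Ikzf1, the gene of the blood transcription factor Ikaros, reached into the window with its end only. The noncoding RNA genes Gm51937 and 1700042O10Rik lie within Ddc on the plus strand, LOC102631979 lies within Grb10, and Gm30423 lies just outside the start of Grb10. Cobl, an actin nucleator gene, was the next protein-coding gene on the Grb10 side, 199 kb away and outside the window.

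RefSeq gives 2 starts each for Grb10 and Ddc and 1 for Fignl1, and their sequences are shown because they differ in the peaks that cover them and in their content of CpG, the dinucleotide that carries DNA methylation. Each window of 300 bases has 250 bases before the start and 50 after it, on the minus strand of GRCm38.p6, with each CpG in capitals.
Fignl1, start at 11808962, chr11:11808913-11809212: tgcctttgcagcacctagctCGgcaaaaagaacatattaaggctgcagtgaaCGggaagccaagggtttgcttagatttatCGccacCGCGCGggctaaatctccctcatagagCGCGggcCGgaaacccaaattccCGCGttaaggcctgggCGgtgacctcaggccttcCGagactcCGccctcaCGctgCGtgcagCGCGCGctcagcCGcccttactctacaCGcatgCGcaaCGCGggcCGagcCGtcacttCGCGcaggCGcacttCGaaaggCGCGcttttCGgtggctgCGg
Ddc, start at 11890408, chr11:11890359-11890658: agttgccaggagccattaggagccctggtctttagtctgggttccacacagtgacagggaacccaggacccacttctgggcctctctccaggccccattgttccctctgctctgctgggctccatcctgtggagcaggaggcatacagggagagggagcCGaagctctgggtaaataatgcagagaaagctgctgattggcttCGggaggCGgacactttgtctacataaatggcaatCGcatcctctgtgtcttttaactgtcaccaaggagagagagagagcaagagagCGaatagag
Ddc, start at 11898144, chr11:11898095-11898394: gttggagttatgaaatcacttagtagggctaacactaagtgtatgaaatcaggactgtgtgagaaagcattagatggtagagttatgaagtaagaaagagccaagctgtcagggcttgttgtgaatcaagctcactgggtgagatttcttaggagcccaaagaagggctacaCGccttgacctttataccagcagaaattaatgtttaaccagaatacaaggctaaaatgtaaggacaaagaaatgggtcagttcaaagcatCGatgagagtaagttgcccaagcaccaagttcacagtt
Grb10, start at 12027971, chr11:12027922-12028221: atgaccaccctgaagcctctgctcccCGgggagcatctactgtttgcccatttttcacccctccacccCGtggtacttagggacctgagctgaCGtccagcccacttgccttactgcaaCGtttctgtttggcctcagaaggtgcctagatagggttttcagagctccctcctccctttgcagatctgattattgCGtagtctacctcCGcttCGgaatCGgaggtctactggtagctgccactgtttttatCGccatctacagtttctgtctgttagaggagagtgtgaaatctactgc
Grb10, start at 12037420, chr11:12037371-12037670: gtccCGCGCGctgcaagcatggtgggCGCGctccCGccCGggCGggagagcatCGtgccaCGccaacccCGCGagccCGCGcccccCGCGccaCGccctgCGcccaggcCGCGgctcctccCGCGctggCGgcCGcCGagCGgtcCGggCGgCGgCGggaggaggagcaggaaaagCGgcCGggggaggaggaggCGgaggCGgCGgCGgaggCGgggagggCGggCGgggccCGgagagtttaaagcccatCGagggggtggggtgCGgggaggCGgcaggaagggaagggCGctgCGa

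The upstream Grb10 start had 45 CpG in its window and a GC content of 80.0%, and 1.93% of all 32851 RefSeq promoter windows had as many CpG. The Fignl1 start had 34 CpG. The downstream Grb10 start had 9, close to the median of 7 over all windows, and the Ddc starts had 5 and 2. Of these 5 windows only that of Fignl1 was covered by a peak, and it was covered by peaks of all 3 antibodies, which holds for 0.627% of all promoter windows. The windows of both Grb10 starts and both Ddc starts overlapped no peak of any list, as did 67.9% of all promoter windows. Among the 635 promoter windows with at least 45 CpG, 56.5% overlapped an H3K27ac peak and 32.0% overlapped no peak, so the bare upstream Grb10 start belonged to the smaller share of such CpG-rich starts. Among windows with at least the 34 CpG of Fignl1, 63.2% overlapped an H3K27ac peak.

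**Figure D1:**
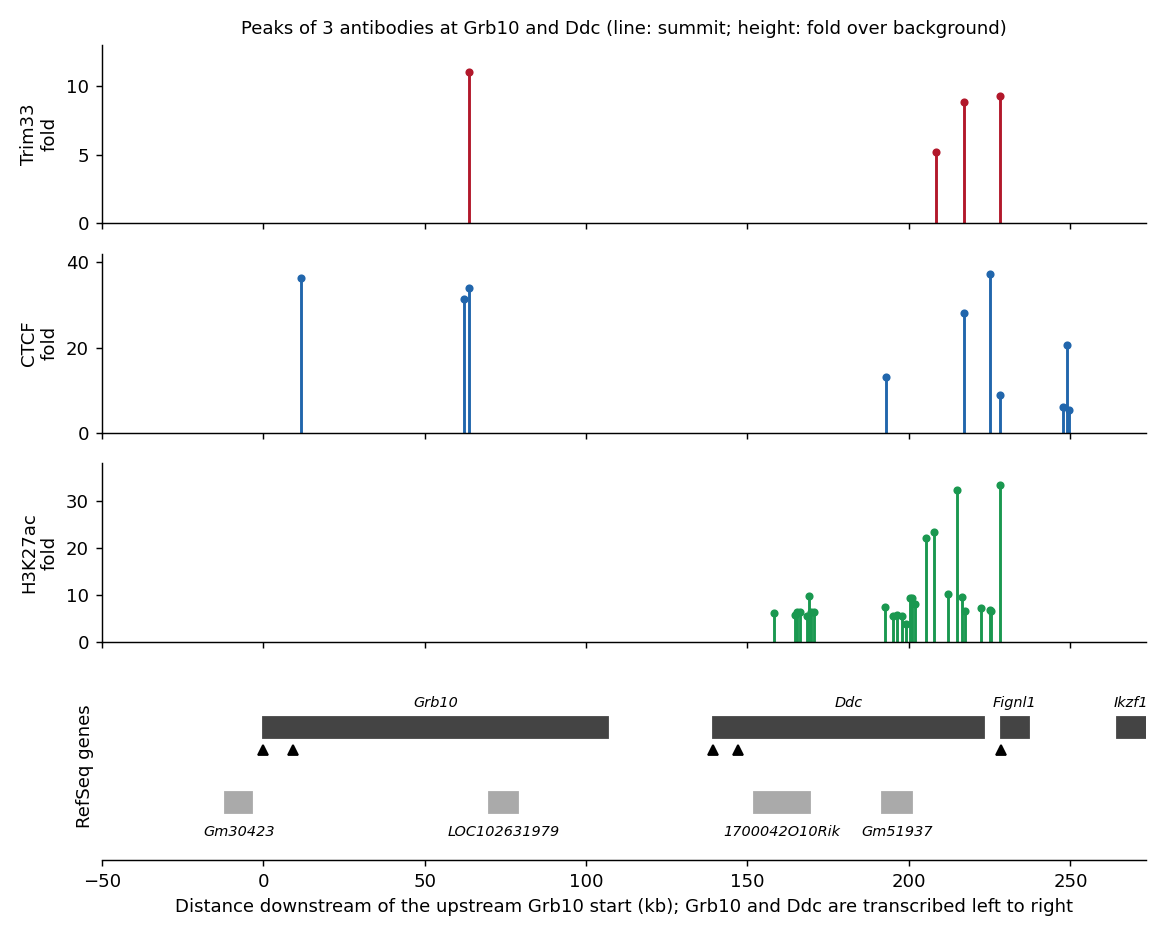
Peak summits in the window around Grb10 and Ddc, drawn as distance in kb downstream of the upstream Grb10 start, with height the authors' fold over background. Rows show Trim33, CTCF, H3K27ac and RefSeq genes (dark: protein-coding, light: noncoding), and triangles mark starts of Grb10, Ddc and Fignl1; Grb10 carries 1 Trim33 and 3 CTCF peaks and no H3K27ac, while the 26 acetylated peaks lie over Ddc and up to the Fignl1 start.

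The 2 genes differed in acetylation, and its edge on the Grb10 side lay inside Ddc. Acetylation covered 23.1 kb of the 84.0 kb of Ddc (27.5%) in 23 peaks with their summit inside the gene, and none of the 107 kb of Grb10, the 32.4 kb between the genes or the 50 kb beyond Grb10. Few genes had as much: 0.0914% of 21883 protein-coding genes had at least as many acetylated bases inside, and 0.174% had at least as many summits. Grb10 had no H3K27ac summit inside or within 50 kb, a common state that was true of 31.6% of protein-coding genes. Within 5 kb, 49.5% of protein-coding genes had none. The acetylated peak nearest to Grb10 ended 51.3 kb from it. The lowest fold in the H3K27ac list was 2.2 and its lowest −log10 p was 7.03, so weaker acetylation at Grb10 would not be listed.

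Within Ddc the acetylation lay towards its finish rather than at its starts. The part of the gene from its midpoint to its 3′ end held 15 of the 23 summits and 20.2 kb of the acetylated sequence, against 8 summits and 2.85 kb in the part with the starts. The last acetylated peak, at chr11:11878977-11879239 with a fold of 6.25, was 11.1 kb from the window of the nearer Ddc start and 18.9 kb from that of the other. Above 20 in fold were 4 of the 26 acetylated peaks. The highest, at chr11:11807990-11811440 with a fold of 33.4, covered the Fignl1 start and ranked 50 of 30047 in its list. The next was inside Ddc at chr11:11821777-11825080, with a fold of 32.3 and rank 67. The others were the neighbouring peaks of Ddc at chr11:11827999-11830329, with a fold of 23.4, and chr11:11830505-11834958, with a fold of 22.2 and a width of 4454 bp. These 4 were among the highest 10.0% of the list, and the median fold of all 26 was 6.78 against 6.74 over the whole list. The window was thus rich in acetylated peaks of common height, with a few very high ones at Fignl1 and the end of Ddc.

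The lower acetylated peaks fell into 3 runs. Between the Fignl1 start and the highest peak of Ddc, 5 peaks had folds of 6.67, 6.9, 7.17, 6.67 and 9.6, in order towards Grb10. After the peak of 32.3 came one of 10.3, then those of 23.4 and 22.2. From there to chr11:11845200 the peaks declined to folds between 3.88 and 9.29 over and beside Gm51937, whose start lay 15 bp from a summit of fold 9.26. A gap of 21.6 kb followed. Beyond it 8 peaks between folds of 5.61 and 9.69 stood around the start of 1700042O10Rik, where the nearest summit, of fold 9.69, lay 0.257 kb away. The window of that start lay 0.055 kb from the nearest acetylated peak, and those of Gm51937 and Fignl1 were the acetylated starts of the locus, where 25.4% of all promoter windows overlapped H3K27ac. Gm51937 and 1700042O10Rik lie within Ddc, so acetylation over them cannot be told apart from acetylation over Ddc.

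Joined across gaps of up to 5 kb, 18 acetylated peaks formed a block of 37.2 kb from the Fignl1 start to the middle of Ddc, which ranked 11 by length among 13945 such blocks. At a gap of 1 kb the block broke up, and its core of 13 peaks and 22.5 kb inside Ddc ranked 7 of 16836, where the median block was 900 bp long. At a gap of 10 kb it was still 37.2 kb long and ranked 69 of 12371. These gap sizes were chosen with the peaks in view.

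**Figure D2:**
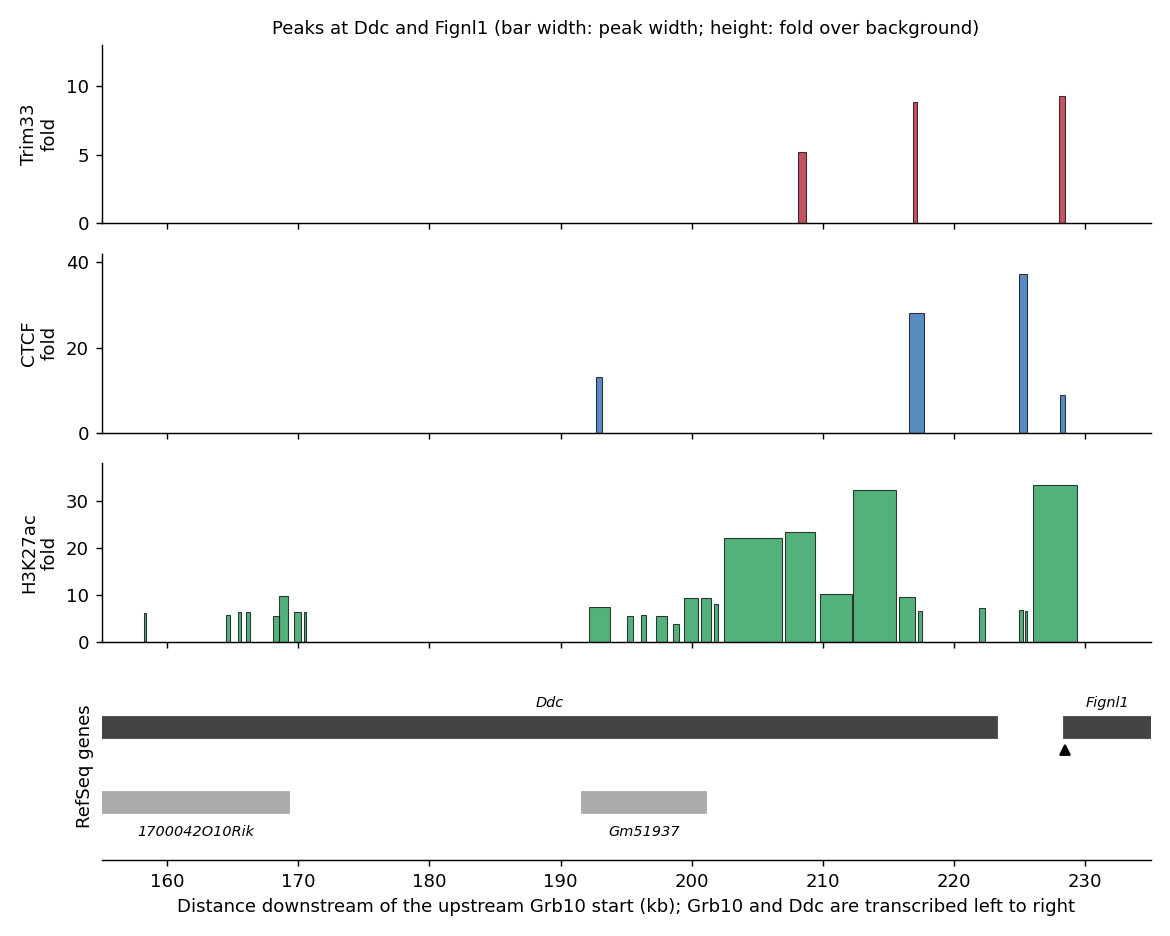
Peaks over Ddc and the Fignl1 start, with bar width the peak's own width, height the fold over background and the x axis as distance in kb downstream of the upstream Grb10 start. The 4 tallest H3K27ac bars, with folds of 33.4, 32.3, 23.4 and 22.2, lie at Fignl1 and the 3′ part of Ddc, beside 3 of the 4 Trim33 peaks and the CTCF peaks of folds 37.4 and 28.2.

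The acetylated peaks of the window stood alone on this stretch of the chromosome. They were the only H3K27ac peaks listed between positions 9905098 and 14182550 of chromosome 11, a span of 4.28 Mb with 9 protein-coding genes, among them Ikzf1, Grb10 and Cobl. The stretch without H3K27ac after the last of them was 2.3 Mb long and ranked 149 of 30027 such gaps, against a median gap of 2.67 kb, and the one before the first was 1.9 Mb. The nearest acetylated peaks on either side, beyond these gaps, had folds of 5.18 and 6.44. The Trim33 peaks were isolated likewise, as the only 4 listed in 7.58 Mb, with the nearest others at folds of 7.22 and 6.83. CTCF was not confined to the window: 31 CTCF peaks, with the 10 of the window, lay in the 4.28 Mb in which H3K27ac was. CTCF was sparse there too, as chromosome 11 had 34.9 CTCF peaks per Mb. The stretch without CTCF after the last CTCF peak of the window was 264 kb long and ranked 1648 of 52425, against a median gap of 10.8 kb. The nearest CTCF peaks outside the window were 21.2 kb beyond its edge on the Ikzf1 side, with a fold of 14.1, and 204 kb beyond it on the Cobl side, with a fold of 7.05.

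Counted per tile of 323 kb, laid end to end over the genome, the window held many peaks of Trim33 and H3K27ac and a common number of CTCF. Of 8418 tiles, 2.25% had 4 or more Trim33 peaks, 2.04% had 26 or more H3K27ac peaks and 23.5% had 10 or more CTCF peaks. All 3 numbers were reached together in 57 tiles (0.677%). The tiles covered whole chromosomes, stretches without genes included, while the window was centred on genes. No Trim33 peak was in 69.9% of the tiles and no H3K27ac peak in 49.2%. In the window, 18 of the 26 acetylated peaks belonged to the block of 37.2 kb, so their number is not a number of separate sites. The window had 12.4 Trim33 peaks per Mb, against 3.03 over chromosome 11, and 80.4 H3K27ac peaks per Mb, against 20.8. For CTCF it had 30.9 per Mb, against 34.9.

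**Figure D3:**
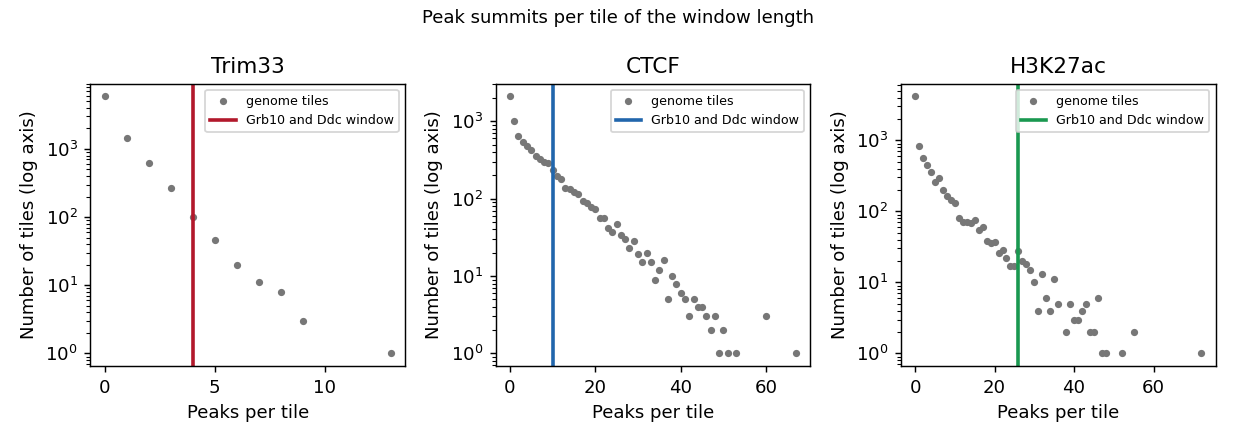
Number of genome tiles of 323 kb (log axis) by their number of peak summits (x axis), for Trim33, CTCF and H3K27ac, with a line at the count of the window around Grb10 and Ddc. The lines stand at 4, 10 and 26 peaks, in the sparse right part for Trim33 and H3K27ac and within the bulk of the tiles for CTCF.

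Trim33 had 4 peaks in the window, 3 on the Ddc side and 1 inside Grb10. The first lay at the Fignl1 start, at chr11:11808897-11809414, with a fold of 9.24. Its summit was 1 bp from that of the highest H3K27ac peak and 101 bp from that of a CTCF peak of fold 8.75. The second lay inside Ddc at chr11:11820248-11820558, with a fold of 8.84, and its summit was 48 bp from that of a CTCF peak of fold 28.2. It reached into the edge of an H3K27ac peak of fold 9.6, whose summit was 593 bp away. The third, at chr11:11828766-11829319 inside Ddc, was weak, with a fold of 5.22 and a −log10 q of 4.45. It lay in the H3K27ac peak of fold 23.4 and overlapped no CTCF. The fourth, inside Grb10 at chr11:11973309-11973746, was the highest, with a fold of 11.0 and a −log10 q of 22.2. Its summit was 30 bp from that of a CTCF peak of fold 34.1, and no H3K27ac peak overlapped it.

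Trim33 thus met CTCF at 3 of the 4 sites, where 44.7% of all Trim33 peaks overlap CTCF, and H3K27ac at 3 of the 4, where 42.6% do. Both marks were present at 2 sites, and none of the 4 lacked both, a state found at 25.3% of Trim33 peaks. With 4 sites these counts cannot be set apart from the shares of the whole list. By summits within 100 bp, only the Fignl1 site met H3K27ac. By the same rule 2 sites met CTCF, as the Trim33 and CTCF summits at Fignl1 were 101 bp apart. The shares of all Trim33 peaks by this rule were not computed. The sites with CTCF were high in the Trim33 list: the Grb10 peak ranked 65 of 4426, the Fignl1 peak 161 and the Ddc peak 210, while the third peak, without CTCF, ranked 2889. Among the 1979 Trim33 peaks that overlap CTCF, the Grb10, Fignl1 and Ddc peaks ranked 29, 82 and 110. Trim33 peaks without CTCF were thus also found at these heights, and 4 sites do not relate height to CTCF. The Fignl1 start was also among few starts with Trim33, which covered 2.76% of all promoter windows and 3.31% of those with at least 34 CpG.

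**Figure D4:**
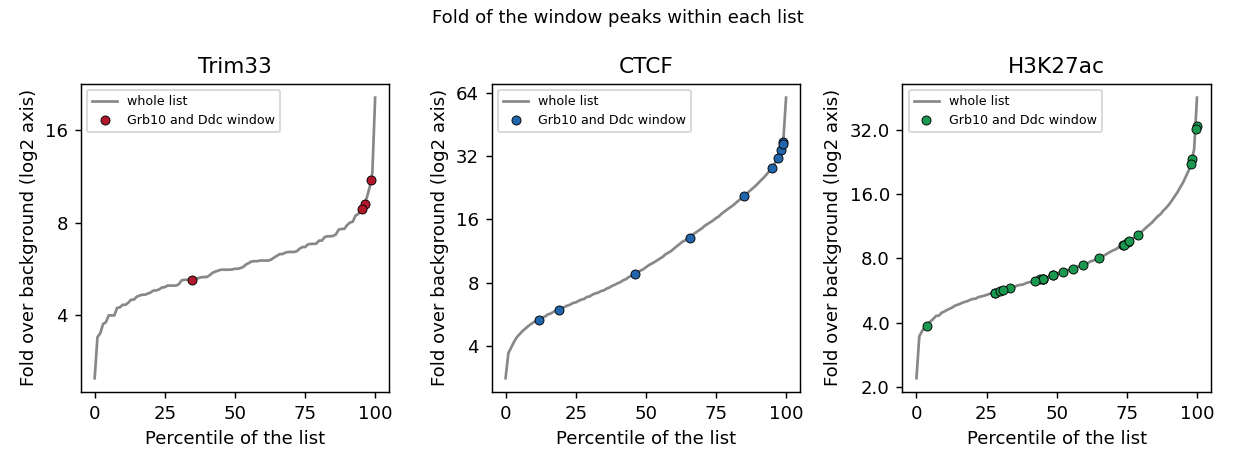
Fold over background (log2 axis) of the peaks in the window, as coloured points, on the curve of all peaks of the same list by percentile (grey line), for Trim33, CTCF and H3K27ac. The Trim33 points are at folds of 11.0, 9.24 and 8.84 near the top of the curve and at 5.22 below its middle; CTCF has 5 points above a fold of 28 and H3K27ac 4 above a fold of 20.

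CTCF had its high peaks in Grb10 and at the 3′ end of Ddc. Inside Grb10 there were 3, at chr11:11973168-11973943 with a fold of 34.1, at chr11:11974804-11975527 with 31.3 and at chr11:12025338-12026565 with 36.4. All 3 were within the highest 3% of the list, with ranks of 967, 1546 and 652 of 52446. The first pair stood 1.51 kb apart in the body of the gene, 6.04 and 7.55 kb from the start of LOC102631979, and the third was 50.8 kb away towards the start of Grb10. The third was the widest CTCF peak of the window, at 1228 bp. Its summit was 2.1 kb from the downstream Grb10 start, on the transcribed side, and its edge was 1.36 kb from the window of that start shown above. Of all protein-coding genes, 1.11% had a CTCF summit inside of at least that fold.

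The 3 CTCF peaks of Grb10 differed in Trim33 although they were alike in height. Only that of fold 34.1 overlapped a Trim33 peak. Neither its neighbour of fold 31.3 nor the peak of fold 36.4 near the downstream start did so. Among all 1556 CTCF peaks with a fold at least that of the lowest of these, 33.5% carried Trim33 and 25.4% overlapped H3K27ac. The Trim33 library had the fewest tags, at 13643929. Whether Trim33 at the other CTCF peaks was below what it could detect was not tested.

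On the other side, 2 CTCF peaks were inside Ddc and 5 between Ddc and the window's edge. The highest of the window, at chr11:11811776-11812456 with a fold of 37.4 and rank 527, lay between Fignl1 and the 3′ end of Ddc, 1.92 kb from Ddc. It had no Trim33, and acetylated peaks of folds 6.67 and 6.9 lay over it. The CTCF peak of fold 28.2 inside Ddc carried Trim33 and overlapped acetylated peaks of 6.67 and 9.6. A lower one of fold 13.1 at chr11:11844251-11844715, in Ddc and Gm51937, was in the last peak of the acetylated block. That at the Fignl1 start, with a fold of 8.75, ranked 28287 and was below the list's median of 9.46. Beyond Fignl1, a peak of fold 20.6 at chr11:11788231-11789349 had low neighbours of 5.33 and 5.94 on either side, and none of these overlapped Trim33 or H3K27ac.

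Of the 10 CTCF peaks, 3 overlapped Trim33, where 3.67% of all CTCF peaks do, and 4 overlapped H3K27ac, where 8.23% do. With summits within 100 bp, both counts were 2, and the shares of the whole list by that rule were not computed. Their median fold was 24.4, against 9.46 over the list, and 5 of them were in the highest 10.0% by fold, of which 20.7% carry Trim33 in the whole list. Both other marks were present at 2 of the 10, where 1.19% of the list has both, and neither at 5, where 89.3% has neither. All 4 CTCF peaks that overlapped H3K27ac, with the 2 that met both marks among them, lay between the Fignl1 start and the last peak of the block. They lie along the same acetylated block and are not independent sites, so the counts are not read as an excess over the list. No CTCF peak lay in the 129 kb between there and the pair in Grb10. Of the H3K27ac peaks, 3 of 26 overlapped Trim33, where 6.23% of the list do, and 6 of 26 overlapped CTCF, where 14.6% do. The Fignl1 site and the site in Ddc beside the CTCF peak of 28.2 met both, where 2.2% of the list do, and 19 of 26 met neither, where 81.3% do.

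Grb10 was set beside the other genes by 3 values, the highest Trim33, CTCF and H3K27ac fold inside the gene or within 5 kb, on the scale log2(fold + 1). Of 2951 protein-coding genes with a Trim33 peak there, the nearest to Grb10 (11.0, 36.4 and no H3K27ac) was Syt17, a synaptotagmin gene, with 9.52, 36.4 and none, at a distance of 0.19. Next were Mrc1, the macrophage mannose receptor gene, with 9.64, 34.1 and none (0.20), and Psd4 with 8.94, 36.1 and none (0.27). A shared Trim33 and CTCF peak without any H3K27ac summit within the same limits was found at 371 protein-coding genes (1.70%). These were 25.8% of the 1436 genes with a shared peak.

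Among 40 imprinted genes, 20 had a Trim33 summit inside or within 5 kb, where 13.5% of protein-coding genes do, and 10 had a Trim33 peak that overlapped CTCF, where 6.56% do. Grb10 and Ddc were among the 10, and the Grb10 peak had the highest Trim33 fold of them, at 11.0, followed closely by that of H19, a noncoding RNA gene, at 10.9 over a CTCF peak of 35.5. Ddc, by the Fignl1 site, was the third with 9.24. The other 7, namely Mest, Kcnk9, Meg3, Usp29, Peg13, Inpp5f and Peg3, had shared peaks with Trim33 folds from 3.4 at Peg3 to 6.89 at Mest. Of the 10, only Grb10 and Kcnk9, a potassium channel gene, had no H3K27ac summit inside or within 5 kb, near the 25.8% of protein-coding genes with a shared peak. Over the whole list, 15 of the 40 genes had none, where 49.5% of all protein-coding genes have none. With peaks of −log10 q of at least 10, 3 genes had a shared peak, and with a limit of 50 kb there were 17. Shares of protein-coding genes under these settings were not computed, so these counts have no share to be set beside. The list was drawn up with imprinted genes already known to carry Trim33 in these data, and neighbouring genes on it share peaks. It also includes noncoding genes such as H19. Its counts therefore cannot be read as an excess over the shares of protein-coding genes.

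In depth the libraries differed. The authors' deposited table gives the Trim33 library 13643929 tags with 0.72% of reads inside peaks, the CTCF library 33090822 tags with 26.46%, the H3K27ac library 29995044 tags with 13.02%, and the input 25729171 tags. Folds rank peaks within a list and are not compared between lists.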

How the data were processed

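The 3 peak lists, 1 per antibody, were used as deposited. According to the authors' deposited summary, peaks were called with MACS 2.1.0 on unique alignments without duplicates against the input, and those in blacklisted regions were removed. The lists reached down to unlike limits, with a lowest −log10 p of 5.06 for Trim33 and 7.03 for CTCF and H3K27ac. A limit of 7 kept 4018 Trim33 peaks, with all 4 of the locus. The input entered with 13643929 tags for Trim33 and 25729171 for the others. BWA 0.7.12 and SICER 1.1 are named in the submitters' processing notes without a role, and mm10 is the build of the lists, per the file names. The lists hold, per peak, the authors' fold (a ratio of tags over local background), −log10 p, −log10 q, a score and the summit. The authors' deposited counts of peaks on chromosome 11 (370, 4264 and 2544) equalled those of the lists.

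Everything else was computed with Python 3.11.15, numpy 2.4.6, pandas 2.3.3 and matplotlib 3.10.9. An overlap needed 1 bp in common. Overlap and window counting was tested on simulated data. Gene positions, starts and promoter sequences came from RefSeq (GRCm38.p6, the assembly of mm10). Exons were not in the tables used here, so a peak inside a gene is not assigned to either exon or intron. All 40 imprinted genes matched, Nespas by an older name. Named are Grb10, Ddc, genes of the window, imprinted genes with a shared peak and the 3 genes most like Grb10. The members and lists were chosen with earlier results of these data known. With 1 library per antibody there is no replicate error, and no test was made.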

Additional observations from a re-analysis of the deposited data

How the results depend on the processing

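The 8 counts of peaks and genes were recomputed under the alternatives that applied to each, 33 values in all. Of these, 29 stayed within 1.5 times of the reported count, where a fall from 3 to 2 was included. The 4 that did not were these. With summits within 100 bp in place of 1 shared bp, 1 Trim33 peak and 2 CTCF peaks of the locus met H3K27ac; the summits of the other overlapping pairs lay farther apart. Imprinted genes with a shared Trim33 and CTCF peak numbered 3 with −log10 q of at least 10, which kept 637 Trim33 peaks, and 17 with a limit of 50 kb. Either setting alters the number for any set of genes, and the matching shares of protein-coding genes were not computed. Flanks of 10 or 100 kb left the Trim33 and H3K27ac counts of the locus at 4 and 26 and gave 7 or 11 CTCF peaks. The nearest Trim33 peak outside the window was 2753 kb beyond its edge and the nearest H3K27ac peak 1859 kb. Flanks of 100 kb therefore could not change those 2 counts. The Trim33 library was the shallowest, and whether a site missing from its list was below detection was not tested. No paired analysis was possible because there was 1 library per antibody.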
